A study of Mus musculus with 6 samples.

Results

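The genes of the calcineurin and NFAT pathway described here are 9 of the 19353 genes counted in mouse bone marrow stromal cells. They are the 5 NFAT transcription factors Nfatc1, Nfatc2, Nfatc3, Nfatc4 and Nfat5, the catalytic calcineurin subunits Ppp3ca and Ppp3cb, and the calcineurin regulators Rcan1 and Rcan2. All 9 gene names were found in the table of counts. The set was selected on the counts of the comparison described below, for a lower Nfatc1 count in cells with few counts of osteoclast markers. The differences of these 9 genes between the groups are therefore given as a description, without p-values.

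Purified primary mesenchymal stem cells from the bone marrow of mice of WT genotype were grown in osteogenic medium, in 2 groups of 3 libraries. Both groups received dexamethasone at 100 nM, ascorbic acid at 50 µM and β-glycerophosphate at 10 mM, and the MCH group also received 0.5 µM melanin-concentrating hormone (MCH), a neuropeptide best known from the hypothalamus. Control had the same medium without the hormone. The sample titles place the harvest on day 9 of induction and the series design on day 8. Strain, age and the number of animals were not given in the labels. Neither do they tell whether the 3 libraries per group stem from different mice or cultures, and the p-values below therefore cover the variation among these libraries alone, which could be technical.

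Calcineurin is a phosphatase that calcium signals switch on. It removes phosphates from the cytoplasmic NFAT factors, which then enter the nucleus and often bind DNA together with AP-1, the dimers of FOS and JUN proteins, while kinases such as GSK3 and DYRK1A send them out again. Nfat5 lacks the calcineurin docking region of the other family members and is best known for the response to osmotic stress. In bone, NFATc1 is best known as the master regulator of osteoclasts, the bone-resorbing cells of the macrophage lineage, and calcineurin and NFAT factors are also active in osteoblasts. Activity of the pathway is set by the location and phosphorylation of the proteins, which RNA counts do not measure.

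Rcan1 is an inhibitor of calcineurin whose internal start is itself a classical NFAT target, so the windows upstream of its starts are shown here, from the RefSeq table for GRCm38.p6. Each line holds the 250 bases before a start, 5′ to 3′ on the minus strand of chromosome 16. Capitals mark the NFAT core GGAAA (or TTTCC, its reverse complement), the AP-1 element TGANTCA and the cAMP response element TGACGTCA, each searched on both strands. No 2 of these matches overlapped.
Rcan1, internal start, chr16:92400079-92400328: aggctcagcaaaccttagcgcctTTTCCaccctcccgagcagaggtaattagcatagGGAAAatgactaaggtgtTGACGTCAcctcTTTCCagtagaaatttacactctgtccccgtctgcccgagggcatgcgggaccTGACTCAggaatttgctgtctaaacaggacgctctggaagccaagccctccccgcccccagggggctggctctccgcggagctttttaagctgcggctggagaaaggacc
Rcan1, upstream start, chr16:92466170-92466419: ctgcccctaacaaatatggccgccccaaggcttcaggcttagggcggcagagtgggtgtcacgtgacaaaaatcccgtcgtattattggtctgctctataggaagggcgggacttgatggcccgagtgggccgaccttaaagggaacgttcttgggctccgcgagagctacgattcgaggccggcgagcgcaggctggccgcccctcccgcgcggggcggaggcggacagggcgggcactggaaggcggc
The window of the internal start held 3 NFAT cores, beginning 227, 193 and 163 bases before the start, 1 AP-1 element at 110 bases and 1 cAMP response element at 175 bases. The window of the upstream start held none of the 3 motifs. Of 32851 RefSeq windows of this length, 55.6% held at least 1 NFAT core, 6.39% held at least 3, 6.75% held an AP-1 element and 1.55% held a cAMP response element. The AP-1 and cAMP response elements were searched for after the window had been read. Windows were found for 7 of the 9 genes, 12 windows in all. Nfatc4, Ppp3cb and 1 of the Nfatc2 windows also held 3 NFAT cores, and Nfat5 and 1 of the Rcan2 windows held 2. Another Rcan2 window held 1 AP-1 element. The counts are per gene and do not tell the 2 Rcan1 starts apart.

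Of the 8 genes with enough reads to test, Nfatc1 and Nfatc4 were called lower with MCH, Rcan1 was called higher, and Nfatc2, Nfatc3, Nfat5, Ppp3ca and Ppp3cb were not called (edgeR's quasi-likelihood test with Benjamini-Hochberg adjustment at 0.05). Among all 13662 genes tested, 3.64% were called higher and 5.4% lower. The groups did not overlap for 3 of the 8, the same 3 genes, against 32.8% of all genes tested. Because the set was chosen on this comparison, these calls and shares are a description and do not count as support for a difference. Over 16 alternative settings each of these 3 genes kept its direction. In bulk RNA, fewer cells of a type and less RNA per cell cannot be told apart.

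**Figure D1:**
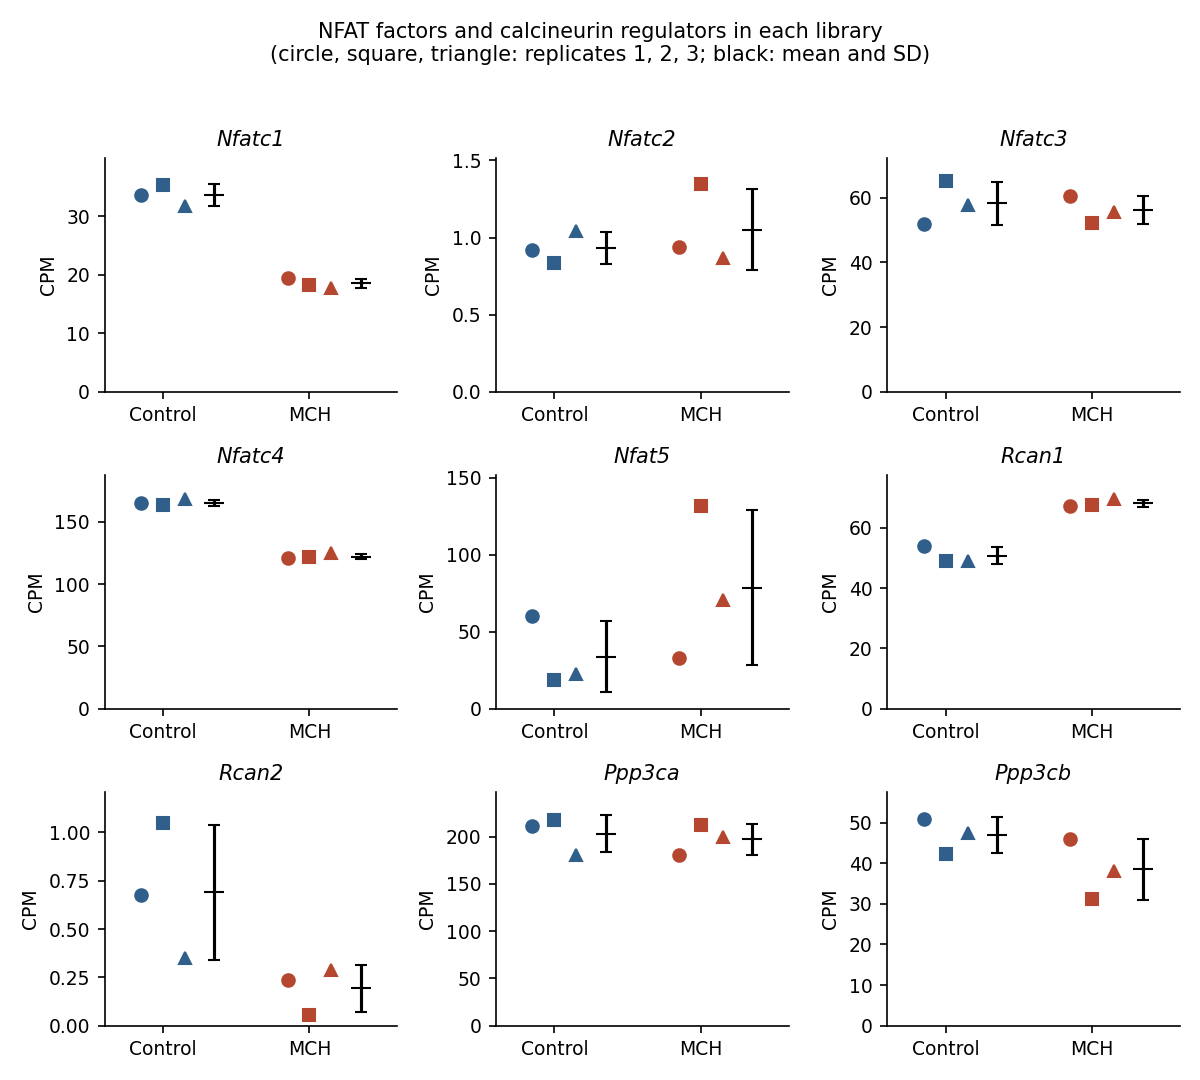
Expression of the 9 genes in each library, in CPM (counts scaled to a common library size) on axes that start at 0, for Control and MCH. Points are libraries and black marks the mean and SD of 3. The groups stand apart for Nfatc1, Nfatc4 and Rcan1, and for Rcan2 at 1 to 20 counts, while Nfat5 runs from 18.6 to 132 CPM across the 2 groups.

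Nfatc1, the NFAT factor that drives osteoclast formation, stood at 33.7, 35.4 and 31.7 CPM in Control replicates 1 to 3 and at 19.4, 18.3 and 17.8 CPM with MCH. Every MCH library lay below every Control library. These values rest on 546 to 676 counts in a Control library and 306 to 330 counts in an MCH library. The means were 33.6 ± 1.84 CPM in Control and 18.5 ± 0.82 CPM with MCH (SD, n = 3), a ratio of 0.55. The fitted log2 difference, MCH minus Control, was -0.86 (SE 0.08), and it ran from -0.90 to -0.82 when each library was left out in turn.

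Nfatc4, an NFAT factor also found in muscle, neurons and stromal cells, stood at 165, 163 and 168 CPM in Control and at 121, 122 and 125 CPM with MCH. The groups did not overlap, and the libraries of a group lay within a few CPM of each other. The log2 difference was -0.43 (SE 0.05), a ratio of 0.741. On GRCm38 the deposited table places Nfatc4 at chr14:55824795-55833943.

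The other 2 calcium-regulated NFAT factors did not show such a separation. Nfatc3 stood at 51.9, 65.1 and 57.8 CPM in Control and at 60.7, 52.2 and 55.6 CPM with MCH. Its groups overlapped over most of their range, with a log2 difference of -0.05 (SE 0.10). Nfatc2, best known from T cells, was near the detection limit, with 15, 16 and 18 counts in Control and 16, 24 and 15 counts with MCH. Its log2 difference of 0.18 had an SE of 0.30, so these counts did not resolve a difference. The exons of Nfatc3 share 219 bases with Esrp2 on the other strand, a gene with 0 to 4 counts in every library.

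Nfat5, the osmotic stress factor, varied most between replicates among the 8 genes. It stood at 60.3, 18.6 and 22.8 CPM in Control and at 32.8, 132 and 70.7 CPM with MCH, and Control replicate 1 exceeded MCH replicate 1. The counts behind these values were 982, 356 and 393 in Control and 559, 2348 and 1219 with MCH. The log2 difference was 1.22 (SE 0.74). It fell to 0.61 without MCH replicate 2 and reached 1.93 without Control replicate 1.

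The spread of Nfat5 within the groups was 0.96 on the log2 scale, and 1.93% of the tested genes had a wider one. At the other end, the spread of Nfatc4 was 0.02, and 0.417% of the tested genes had a narrower one. Rcan1 and Nfatc1 also varied little, with spreads of 0.06 and 0.07 against a median of 0.148 over all tested genes. Nfatc3 and Ppp3ca lay close to that median, at 0.14 and 0.13. Ppp3cb and Nfatc2 had spreads of 0.22 and 0.24.

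**Figure D2:**
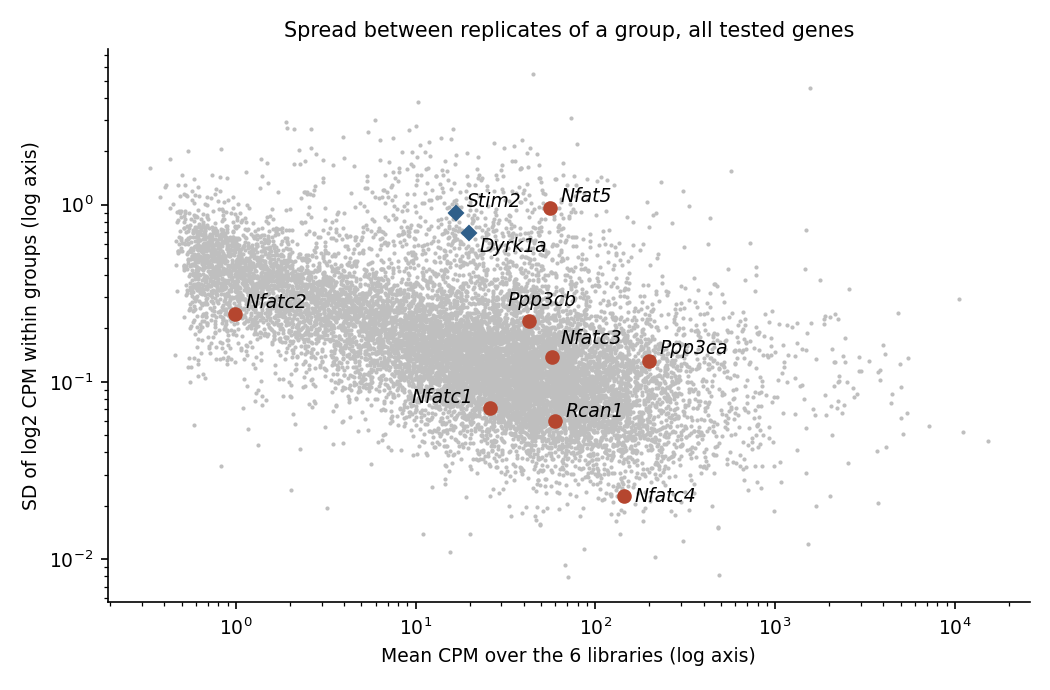
Spread of log2 CPM within the groups against mean CPM over the 6 libraries, both on log axes; grey points are the 13662 tested genes, red circles the 8 tested NFAT and calcineurin genes, and blue diamonds 2 pathway genes picked after their values were seen. Nfat5 lies near the upper edge at 0.96 and Nfatc4 near the lower edge at 0.02.

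Other genes of the pathway with a wide spread were singled out after their values were seen. Stim2, a calcium sensor of the endoplasmic reticulum, had 183, 278 and 235 counts in Control and 512, 108 and 435 counts with MCH. Dyrk1a, a kinase that phosphorylates NFAT factors, had 209, 242 and 536 counts in Control and 546, 247 and 284 counts with MCH. MCH replicate 1 had the highest count of Stim2 and of Dyrk1a. MCH replicate 2 had the highest count of Nfat5 and the lowest count of Stim2. The spreads of Stim2 and Dyrk1a were 0.89 and 0.69 on the log2 scale.

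Rcan1, whose starts are shown above, stood at 54.1, 49.1 and 49.0 CPM in Control and at 67.3, 67.5 and 69.4 CPM with MCH. Every MCH library lay above every Control library, so Rcan1 moved opposite to Nfatc1 and Nfatc4. The means were 50.8 ± 2.92 and 68.1 ± 1.19 CPM (SD, n = 3), a ratio of 1.34 and a log2 difference of 0.42 (SE 0.07). The deposited table places the gene at chr16:92391953-92466146.

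Rcan2, the second regulator of this family, was too low to test, with 11, 20 and 6 counts in Control and 4, 1 and 5 counts with MCH. No MCH library reached the lowest Control library. The summed counts were 37 and 10, a ratio of 0.271 relative to the library totals, with an exact 95% interval from 0.12 to 0.556. The interval covers counting error only and leaves out the spread between libraries.

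The catalytic subunits showed no separation between the groups. Ppp3ca stood at 211, 217 and 180 CPM in Control and at 180, 212 and 199 CPM with MCH, with a log2 difference of -0.04 (SE 0.09). Ppp3cb stood at 50.9, 42.2 and 47.5 CPM in Control and at 46.1, 31.2 and 38.1 CPM with MCH. Its log2 difference was -0.28 (SE 0.15), and MCH replicate 1 lay inside the Control range. Without MCH replicate 2, which held the lowest value, the difference was -0.15, and without MCH replicate 1 it was -0.44.

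Levels of different genes were compared per length. On the deposited FPKM scale (fragments scaled to gene length and library size), Control cells held Nfatc4 at 33.2, Rcan1 at 20.3, Ppp3ca at 17.7, Nfatc3 at 9.72, Ppp3cb at 4.32, Nfatc1 at 4.23 and Nfat5 at 0.848 FPKM. Rcan2 and Nfatc2 followed at 0.16 and 0.052 FPKM. The ranges of Ppp3cb and Nfatc1 overlapped and those of the other neighbours in this order did not. With MCH, Rcan1 (27.0 FPKM) stood above Nfatc4 (24.4 FPKM), with no overlap between their libraries.

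The length behind the deposited FPKM differed between the genes. Dividing counts by FPKM gave a length of 39806 bases for Nfat5, against 13382 bases for the merged exons of its coding transcripts in GENCODE M21, 2.97 times as long. For Nfat5, Nfatc2 and Ppp3ca the implied length equalled the sum of all distinct exons over all transcripts, in which overlapping exons are counted again. The ratio was 2.39 for Ppp3ca, 2.27 for Ppp3cb and 2.16 for Nfatc2, and between 0.902 and 1.19 for the other 5 genes. Among 12812 genes with at least 100 counts, 67.2% had an implied length that matched this sum within 2 bases. Against the merged exons of all transcripts, coding or not, the implied length of Ppp3ca was close (11465 against 9981 bases), while that of Nfat5 was still far longer (39806 against 18378 bases). How low the FPKM of Ppp3ca reads thus depends on which transcripts are counted in its length.

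Per kilobase of merged coding-transcript exons, a scale added, like the one over all transcripts below, after the FPKM had been seen, Control cells held Ppp3ca at 42.3 ± 4.03 and Nfatc4 at 39.3 ± 0.60 RPKM (SD, n = 3), with overlapping ranges. Rcan1 followed at 18.3 ± 1.04 RPKM, apart from both its neighbours. Ppp3cb and Nfatc3 overlapped at 9.78 ± 0.904 and 9.46 ± 1.09 RPKM, as did Nfatc1 and Nfat5 at 4.52 ± 0.25 and 2.53 ± 1.72 RPKM. Rcan2 and Nfatc2 stood last at 0.158 and 0.112 RPKM, and their ranges overlapped. With MCH the first 3 genes kept that order without overlap, at 41.2, 29.2 and 24.5 RPKM. Over the merged exons of all transcripts the order turned. Control then had Nfatc4 at 28.4 RPKM above Ppp3ca at 20.3 and Rcan1 at 16.4, without overlap, and Ppp3cb and Nfatc3 stood at 5.32 and 4.97. With MCH, Rcan1, Nfatc4 and Ppp3ca stood at 22.1, 21.1 and 19.8 RPKM on that scale. The place of Ppp3ca above or below Nfatc4 and Rcan1 is therefore not settled by these data. On the coding-transcript scale with MCH, Nfat5 passed Nfatc1 in the mean, at 5.88 ± 3.76 against 2.48 ± 0.107 RPKM, but their libraries overlapped.

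**Figure D3:**
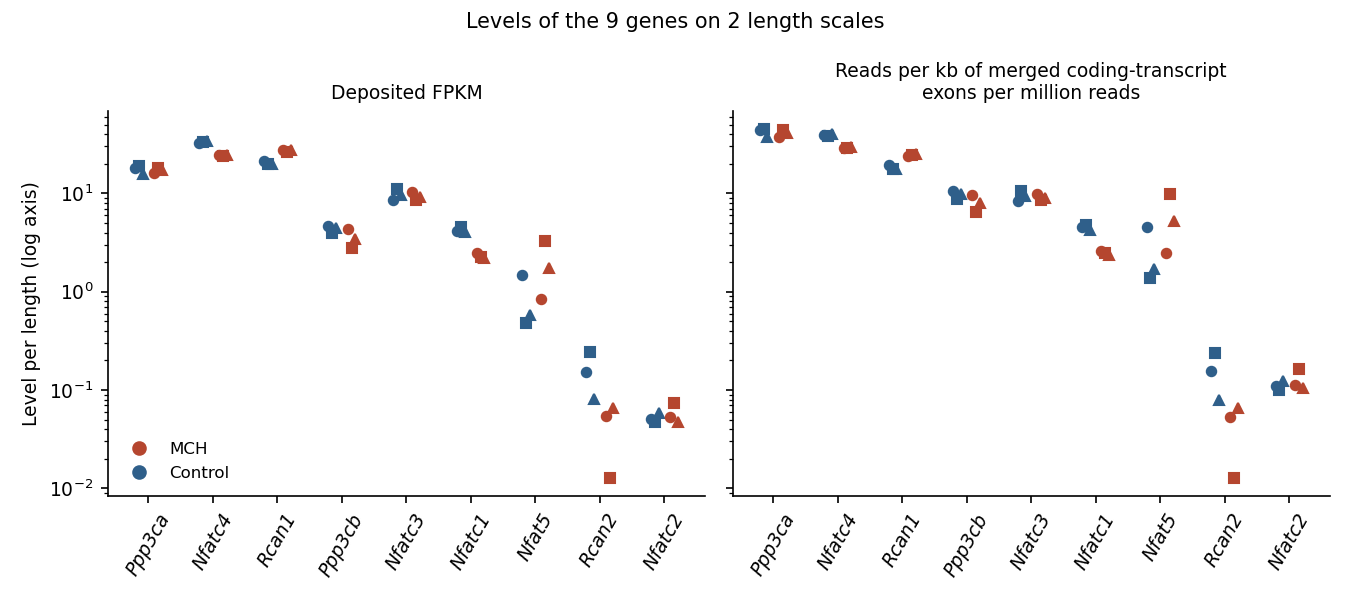
Levels of the 9 genes per length on log axes, as deposited FPKM and as RPKM over merged coding-transcript exons; points are libraries, coloured by group. Ppp3ca moves from 17.7 FPKM to 42.3 RPKM in Control and Nfat5 from 0.848 FPKM to 2.53 RPKM, while Nfatc1 stays near 4 on both.

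Within the NFAT family, Nfatc4 made up 69.1 to 72.1% of the summed RPKM in the Control libraries and 58.1 to 65.7% in the MCH libraries. Nfatc1 made up 7.70 to 8.57% in Control and 4.91 to 5.95% with MCH, without overlap. Nfatc3 ran from 14.8 to 19.1% in Control and from 16.9 to 22.5% with MCH. Nfat5 ran from 2.5 to 7.93% and from 5.61 to 19.8%. Shares of a sum are not independent of each other, so a high Nfat5 library lowers the shares of the other 4 factors. On all 3 length scales Nfatc4 held the highest share in each library.

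The cells carried the transcripts of stromal cells and few of osteoclasts. All 10 stromal markers passed the count filter, though Lepr had only 5 to 20 counts and Thy1 36 to 59. The leukocyte gene Ptprc reached at most 2 counts in a library. Of 13 osteoclast markers, 11 were in the table, and 6 of these passed the same filter. Tnfrsf11a, which encodes the receptor RANK, had 0 to 3 counts, and Ocstamp and Oscar had at most 8 and 9 counts. Acp5 ran from 1 to 19 counts, Atp6v0d2 from 0 to 29, Car2 from 3 to 19 and Ctsk from 18 to 25. Of the 6 osteoclast markers tested, edgeR called 2, both lower with MCH like Nfatc1, beside 5.4% of all genes tested called lower. The median log2 difference of the 6 was -0.46, beside 0.002 over all tested genes. Mmp9, a matrix protease also made by other cells, had 86 to 109 counts in the MCH libraries and 184 to 209 in the Control libraries (log2 difference -1.02, SE 0.16, edgeR adjusted p = 0.0111), a call lost without MCH replicate 3 or Control replicate 3. Itgb3, an integrin also found outside osteoclasts, had 83 to 104 counts in the MCH libraries and 151 to 189 in the Control libraries (log2 difference -0.77, SE 0.14, edgeR adjusted p = 0.0192). The 11 markers summed to 2881 to 2980 counts with MCH and 3178 to 3448 counts in Control, most of it from Tcirg1 and Clcn7, which encode proton pump and chloride channel parts also found in lysosomes of other cells. In each library the counts of Nfatc1 exceeded those of Acp5, Ctsk, Atp6v0d2, Ocstamp, Oscar and Tnfrsf11a. The counts of Tcirg1 (1633 to 1973) and Clcn7 (934 to 1134) were above those of Nfatc1 in each library.

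**Figure D4:**
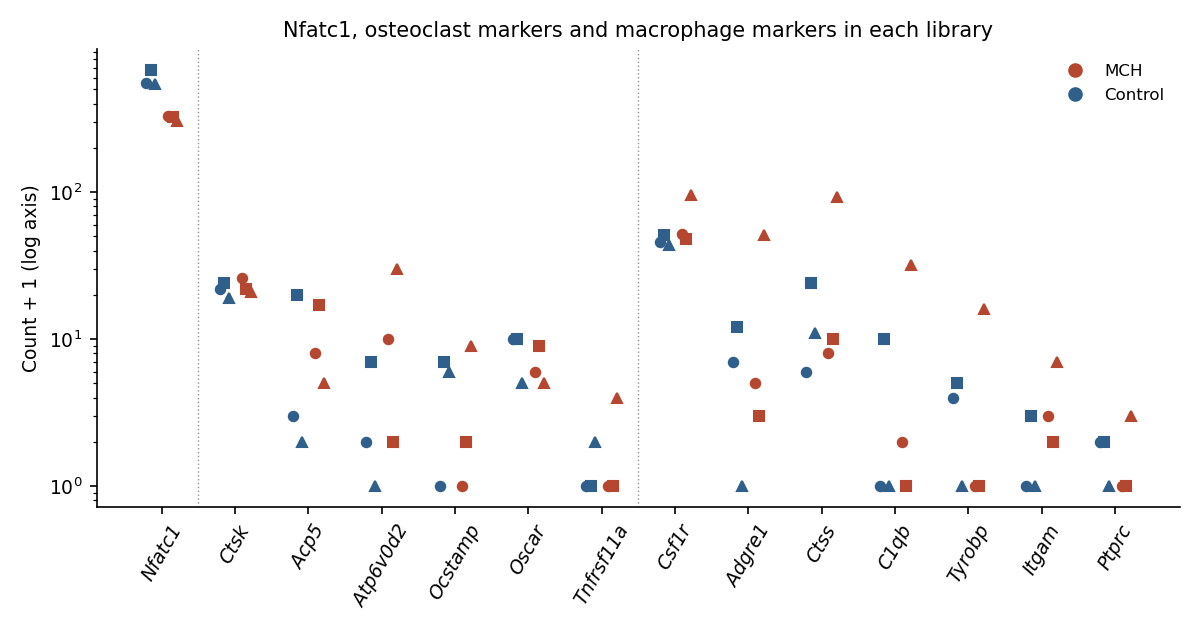
Counts plus 1 on a log axis in each library for Nfatc1, 6 osteoclast genes and 7 macrophage genes, coloured by group. Nfatc1 lies between 306 and 676 counts, above the 13 other genes shown in every library. Not all markers are shown: Tcirg1, Clcn7 and Cd14 exceeded Nfatc1 in every library and Cd68 in every MCH library. MCH replicate 3 stands above the other libraries for Adgre1, Ctss and C1qb.

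Some markers of other cells also moved with the groups. MCH replicate 3 held 50 counts of the macrophage gene Adgre1 against 0 to 11 in the other libraries, and 92 counts of Ctss against 5 to 23. In that library Nfatc1 stood at 17.8 CPM, and without that library the log2 difference of Nfatc1 was -0.84. Of 14 macrophage markers, 5 were tested, with a median log2 difference of 0.47. By edgeR, Cd14 was called lower (-0.43) and the other 4 were not called. Their differences were 0.50 for Csf1r, 1.54 for Ctss, 0.39 for Lyz2 and 0.47 for Cd68. Without MCH replicate 3 the differences were 0.10 for Csf1r, -0.62 for Ctss and 0.34 for Cd68. Lyz2 had 176 counts in that library and 52 to 110 in the others. Cd68 had 690 to 934 counts in the MCH libraries and 549 to 606 in the Control libraries, and DESeq2 called it higher (adjusted p = 0.0225). Of the stromal markers, edgeR called 5 of 10 lower. Among all genes tested, 3.64% were called higher and 5.4% lower. The 5 included Pdgfrb (log2 difference -0.84, SE 0.08) and Pdgfra (-0.69, SE 0.07). The stromal list summed to 81430 to 83785 counts with MCH and 107467 to 122993 counts in Control. Most of that sum was Col1a1, with 64369 to 68614 counts in the MCH libraries and 81393 to 95948 in the Control libraries. Vcam1 went the other way (log2 difference 0.48, edgeR adjusted p = 0.0745), and DESeq2 called it higher. Of 9 smooth muscle markers tested, edgeR called Tagln higher (0.35) and Notch3 lower (-0.82), and DESeq2 also called Acta2 higher (0.26, adjusted p = 0.0288). The groups did not overlap for 6 of these 9, against 32.8% of all genes tested. Acta2, Tagln, Cnn1 and Mcam were each higher in every MCH library than in any Control library. Notch3 and Des were lower in every MCH library, as was Rgs5, which was too low to test. The median log2 difference of the 9 was -0.09. The edgeR calls of Tagln and Notch3 were lost without MCH replicate 2 or 3 or Control replicate 2 or 3. Notch3 also lost its call with no filter beyond 1 count in all, with the non-robust fit and in both limma fits on FPKM. Of 6 endothelial markers edgeR, DESeq2 and limma-voom each called 0, with 1 at an unadjusted p under 0.05 in edgeR. Of 12 T cell markers, Cd3d, Cd3g, Cd4, Cd8a, Cd8b1 and Cd2 had no row, and 2 of the 6 in the table were tested. By edgeR, Cd3e was called higher, with 125 to 153 counts with MCH against 39 to 61 in Control, and Lck was not called (0.45). Zap70 and Il7r had at most 7 and 5 counts. Of the other listed genes of the receptor complex of Cd3e, Cd247 had at most 2 counts and Cd3d and Cd3g had no row. The part of these shifts in the differences of Nfatc1, Nfatc4 and Rcan1 was not tested.

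The 5 genes closest to Nfatc1 over the 6 libraries, by the distance between their centred log2 CPM among 9485 genes of at least 10 CPM, were Pi15, Grem1, Gm8113, Fosb and Dcn. Their distances ran from 0.09 to 0.158 and their Pearson r with Nfatc1 from 0.994 to 0.998. These correlations are a description over 6 libraries that share the same 2 groups. Grem1 encodes a secreted BMP antagonist, Dcn the matrix proteoglycan decorin and Fosb a member of AP-1. Their log2 differences were -0.91 (SE 0.07), -0.77 (SE 0.07) and -0.91 (SE 0.08).

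The rest of the pathway was read from 7 gene lists with 120 genes, of which 92 were tested. With MCH, 18 of the 92 fell and 2 rose, 19.6% and 2.17%, beside 5.4% and 3.64% of all tested genes. The median log2 difference of the 92 was -0.10, beside 0.002 over all tested genes. The lists were chosen with earlier results known, and the counts are a description. The count of 18 was 9 without MCH replicate 3, 10 without Control replicate 3 and 11 without MCH replicate 2 or Control replicate 2. It was 5 with the replicate number as a block. Calls lost with that block are given in the closing section and not gene by gene below.

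**Figure D5:**
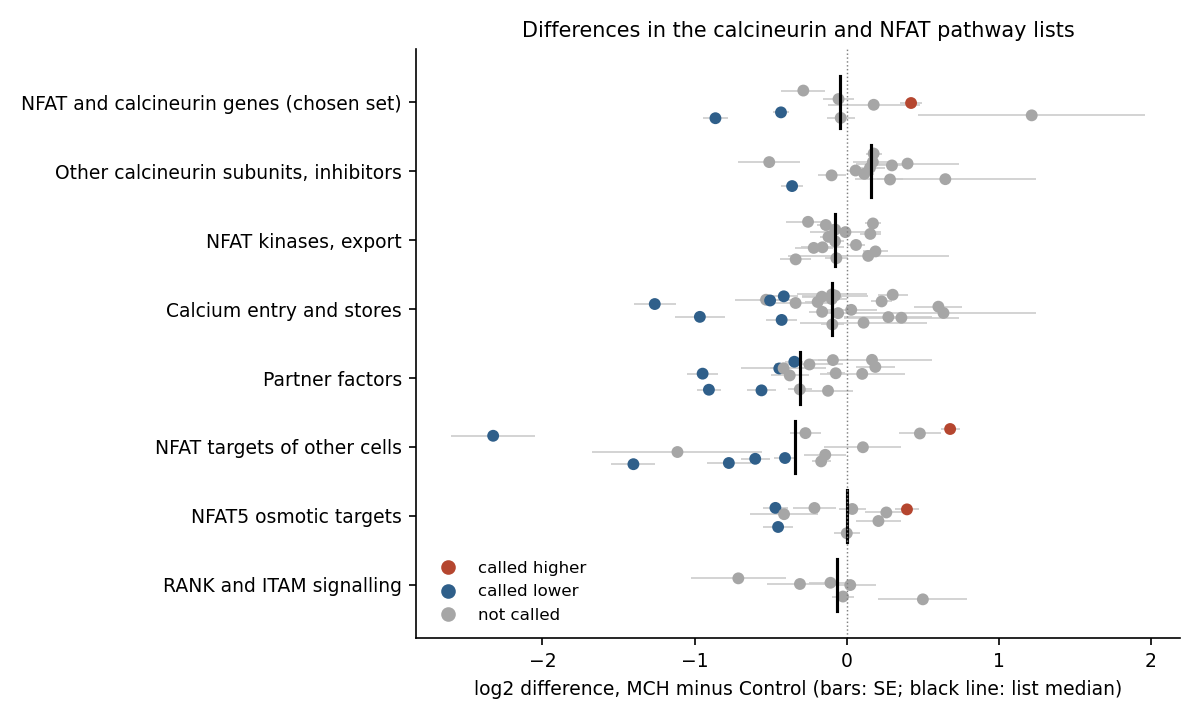
Log2 differences, MCH minus Control, of the tested genes of each list, with SE as bars and the list median as a black line; red marks genes called higher, blue genes called lower and grey genes not called. The partner factors and the NFAT targets of other cells have the lowest medians, -0.31 and -0.34.

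Among other calcineurin subunits, binding proteins and inhibitors, 1 of 12 tested genes was called lower and 0 higher. Of all tested genes, 5.4% were called lower and 3.64% higher. With 1 call, nothing is read about the list. Cabin1, an inhibitor that binds calcineurin and MEF2, fell from 85.1 ± 6.01 to 66.3 ± 2.44 CPM (SD, n = 3; log2 difference -0.36, SE 0.07, edgeR adjusted p = 0.0272). That call was lost when MCH replicate 2 or 3 or Control replicate 1 or 3 was left out, with adjusted p up to 0.11. Ppp3cc, the third catalytic subunit, stood at 21.3 ± 0.984 CPM in Control and 26.0 ± 1.32 CPM with MCH (edgeR adjusted p = 0.0781). The regulatory subunit Ppp3r1 stood at 107 and 121 CPM (edgeR adjusted p = 0.0786). Neither passed the threshold. Of the kinases and export factors that return NFAT to the cytoplasm, edgeR called 0 of 15, with 3 at an unadjusted p under 0.05 (1 higher, 2 lower), and DESeq2 and limma-voom each called 0.

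Of 23 tested genes of calcium entry and stores, 5 fell and 0 rose, beside 5.4% and 3.64% of all tested genes. Trpc6, a calcium channel opened by diacylglycerol, fell from 9.63 ± 0.233 to 4.01 ± 0.471 CPM (SD, n = 3; log2 difference -1.26, SE 0.14, edgeR adjusted p = 0.00302), and its call held in all 16 alternatives. Plcb3, a phospholipase C downstream of Gq-coupled receptors, fell by 0.50 on the log2 scale (edgeR adjusted p = 0.00869). Atp2b4 and Atp2b1, calcium pumps of the plasma membrane, fell by 0.96 and 0.41, and Itpr3, a receptor channel for inositol trisphosphate named after its values were seen, fell by 0.43. Of these last 3, Atp2b4 lost its call without Control replicate 2 or 3 and with limma on log2(FPKM + 1). Atp2b1 lost it without MCH replicate 2 or 3 or Control replicate 2 or 3 and in both limma fits on FPKM. Itpr3 lost it in 10 of 16 alternatives, among them limma-voom (adjusted p = 0.0547), the non-robust fit, both fits on FPKM and the omission of any library but MCH replicate 1.

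Of 15 tested partner factors of NFAT, 5 fell and 0 rose by edgeR, beside 5.4% and 3.64% of all tested genes. At an unadjusted p under 0.05 in edgeR, or by DESeq2 or limma-voom, 0 rose. Fosb fell from 47.3 ± 2.06 to 25.2 ± 1.08 CPM (SD, n = 3; log2 difference -0.91, SE 0.08, edgeR adjusted p = 0.000922) and Fos from 141 ± 6.16 to 72.9 ± 10.0 CPM (-0.95, SE 0.10, edgeR adjusted p = 0.0025). Both calls held in all 16 alternatives. Mef2d, of the MEF2 factors that act with NFAT in muscle, fell by 0.44 on the log2 scale and Junb by 0.56, and Jun, named after its values were seen, fell by 0.34. Junb lost its call without MCH replicate 3, and Jun lost it without MCH replicate 2 or 3 or Control replicate 3.

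Genes known as NFAT targets in T cells, osteoclasts or other cells were counted in the same way. Of 12 tested, 5 fell and 1 rose, beside 5.4% and 3.64% of all tested genes. Tnfsf11, which encodes RANKL, the ligand that drives osteoclast formation, had 81, 92 and 62 counts in Control and 21, 12 and 13 counts with MCH (log2 difference -2.32, SE 0.28, edgeR adjusted p = 0.00364). Csf2, the cytokine GM-CSF, fell from 14.7 ± 2.13 to 5.56 ± 0.381 CPM (SD, n = 3; log2 difference -1.40, edgeR adjusted p = 0.00223). Il6 fell by 0.60 on the log2 scale, Itgb3 by 0.77 and Nr4a1 by 0.41, the last 2 named after their values were seen. Itgb3 and Nr4a1 lost their calls without MCH replicate 2 or 3 or Control replicate 2 or 3. The chemokine gene Ccl2 went the other way, from 90.3 ± 2.88 to 145 ± 7.18 CPM (log2 difference 0.68, SE 0.06, edgeR adjusted p = 0.0013). Tnfsf11, Csf2 and Ccl2 kept their calls in all 16 alternatives.

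Known osmotic targets of NFAT5 showed no common direction. Of 9 tested, 1 was called higher and 2 lower, beside 3.64% and 5.4% of all tested genes. The median log2 difference was 0.001, beside 0.002 over all tested genes. Slc6a12, the betaine transporter, rose by 0.40 (edgeR adjusted p = 0.0274), the taurine transporter Slc6a6 fell by 0.45 and the water channel Aqp1 fell by 0.47. Slc6a12 lost its call when any library but MCH replicate 1 was left out. Slc6a6 lost its call without MCH replicate 2 or 3 or Control replicate 2 or 3 and in both limma fits on FPKM, and Aqp1 without MCH replicate 3 or Control replicate 2. Of the RANK and ITAM signalling genes upstream of Nfatc1 in osteoclasts, 6 of 11 were tested, and edgeR called 0, also at an unadjusted p under 0.05, as did DESeq2 and limma-voom.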

How the data were processed

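Polyadenylated RNA of 6 libraries was sequenced after preparation with a VAHTS kit, per the labels' protocols. The authors deposited 1 table that gives, per the file headers, read counts (whole numbers) and FPKM for each gene in each library. The submitters' processing notes name GRCm38 (mm10) as the build. Not given in the sources used here are the aligner, counter, annotation and strand setting. Columns with MCH in their names were taken as MCH and the other 3 as Control, since the series has no other group.

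Library totals ran from 16521980 to 18803949 counts, with 16974 to 17546 genes counted. Pairs of libraries within a group had a chi-square of 14.93 to 25.34 per degree of freedom, above counting noise, and were kept as separate samples. On the first principal component MCH replicate 1 lay at -10.9, the other MCH libraries at -32.3 and -24.8 and Control at 18.9 to 25.5. GENCODE M21 held 19250 of the 19353 gene IDs and gave the exon lengths. RPKM was computed from the counts.

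The test on counts used edgeR 4.0.16 under R 4.3.3, with TMM factors, filterByExpr (minimum count 10, total 15), a robust quasi-likelihood fit on group, two-sided tests and a Benjamini-Hochberg threshold of 0.05. Of all genes 13662 passed the filter and 5691 did not, among them Rcan2. CPM values are TMM scaled. The SE was taken as the size of the unshrunken log2 coefficient over the root of F. Alternatives were RLE and upper-quartile scaling, other filters, a non-robust fit, DESeq2 1.42.0, limma 3.58.1 (voom, and log2(FPKM + 1) and log2(FPKM + 0.1)), a replicate block and the omission of each library in turn. The steps were tested on simulated counts. Where each gene was drawn with its own dispersion, the share of calls on unchanged genes was above the nominal level in 10 of 10 draws, and with a trended dispersion in 3 of 10, so calls near the threshold are less secure than their adjusted p states.

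The 9 genes and the lists were chosen with earlier results of these data known. Named genes are the 9, up to 4 genes of smallest p per list, defining markers and the 5 genes nearest to Nfatc1. Not every gene that this rule takes is reported. Near-identical copies and antisense overlaps cannot be told apart without the counting method.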

Additional observations from a re-analysis of the deposited data

How the results depend on the processing

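Each of the 8 tested genes was refitted under up to 16 alternatives, and none changed from called higher to called lower or the reverse. Nfatc4 ran from -0.45 to -0.42 and Rcan1 from 0.40 to 0.47 on the log2 scale. On log2(FPKM + 1) limma gave -0.66 for Nfatc1, where the added constant shrinks differences of low genes. The edgeR fit of Nfatc1 without each library in turn gave -0.90 to -0.82. Differences not called had no stable sign for Nfatc2 (-0.04 to 0.30), Nfatc3 (-0.13 to 0.03) and Ppp3ca (-0.12 to 0.02).

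Counts of calls depended far more on the setting. Without each library in turn, genes called higher ran from 65 to 718 (497 with all libraries) and genes called lower from 266 to 871 (738 with all libraries). In the 7 pathway lists they ran from 1 to 3 (2 with all) and from 9 to 20 (18 with all). DESeq2 called 4 pathway genes higher. With the replicate number as a block, 28 genes were called higher and 151 lower, and in the pathway lists 1 and 5. The 1 was Ccl2 and the 5 were Trpc6, Fos, Fosb, Tnfsf11 and Csf2. The other pathway calls named above were lost with the block, among them Plcb3, Mef2d and Il6, which held in every other alternative. Outside these lists, Cd14, Tagln and Notch3 lost their calls with the block as well. Deviations of same-numbered libraries correlated at -0.161, -0.039 and -0.014, and no library correlated best with its own number. With 3 libraries per group these values cannot tell whether same-numbered libraries share an animal, culture or batch. The cause of the changes in the counts of calls was not tested.

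Counts of 15 to 24 for Nfatc2 and 1 to 20 for Rcan2 limit what could be resolved for those genes.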
